A study of Mus musculus with 12 samples.

Results

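The mouse receptors for the constant part (Fc) of immunoglobulin G were followed across liver and tumor with and without a T cell-engaging antibody. The 6 genes were taken by symbol from the count table: Fcgr1, Fcgr3 and Fcgr4 for the activating receptors, Fcgr2b for the inhibitory receptor, Fcer1g for the signaling chain shared by the activating receptors, and Fcgrt for the neonatal Fc receptor. All 6 of 6 were found, each under 1 identifier, among 52636 gene identifiers, and all 6 were abundant enough to be tested in each of the 5 comparisons.

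Fc receptors let cells respond to antibody-coated targets. The activating receptors bind IgG outside the cell and signal through the paired ITAM chain Fcer1g, which recruits Src-family kinases and Syk in macrophages, neutrophils and NK cells, whereas Fcgr2b carries an inhibitory ITIM motif and recruits the lipid phosphatase Inpp5d. In liver, Fcgr2b is known as a receptor of the sinusoidal endothelium that clears small immune complexes, and Fcgrt, together with B2m, returns IgG and albumin from endosomes to the blood and is expressed by hepatocytes as well as by macrophages and endothelium.

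The samples came from female FVB/NJ mice that carried a piece of the Fo5 tumor, a mammary tumor from 1 MMTV-HER2 transgenic founder line, in the mammary fat pad. In that line the mammary tumor virus promoter drives HER2, and the host mice were wild type with their own immune cells. Treatment was a single intravenous injection of buffer (vehicle) or of the anti-HER2(4D5-2C11)/CD3 antibody (TDB) at 5 mg/kg, which binds HER2 with 1 arm and CD3 on T cells with the other, and liver and tumor were taken after 24 h. Bulk RNA of dissociated tissue gave 12 libraries, 3 for each tissue under each treatment. No label gives the age of the mice.

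Libraries held 18460159 to 29396324 counts. Hepatocyte markers summed to 154000 to 280000 CPM (counts scaled to a common library size) in liver libraries and to 0.237 to 26.1 in tumor libraries, and tumor epithelial markers summed to 14000 to 16500 in tumor. Library 3 of liver TDB stood apart from the other 5 liver libraries: it lay at 87 on their first principal component (57.7% of the variance) against -53.6 to 5.92, and 2.05% of its counts were mitochondrial against 0.847% to 1.28%. The biological coefficient of variation was 32.3% in liver and 13% in tumor, so liver differences were measured less precisely.

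Levels below are CPM scaled by TMM factors over the 12 libraries, a method that assumes most genes do not differ. The factors were 0.6 to 0.74 in liver, where Alb took 7.96% to 14.3% of counts, and 1.49 to 1.57 in tumor. Comparisons between tissues depend on this scaling and are given below for library size alone as well.

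Fcgr2b, Fcgr4, Fcgr3 and Fcer1g lie near each other on chromosome 1 (GRCm38, GENCODE M21). Fcgr2b (ENSMUSG00000026656) spans 170958617 to 170976547 on the minus strand, Fcgr4 (ENSMUSG00000059089) 171018920 to 171029761 on the plus strand, Fcgr3 (ENSMUSG00000059498) 171051174 to 171064935 and Fcer1g (ENSMUSG00000058715) 171229572 to 171234365, both on the minus strand. Fcgr1 (ENSMUSG00000015947) lies apart on chromosome 3, at 96282909 to 96293969, and Fcgrt (ENSMUSG00000003420) on chromosome 7, at 45092990 to 45103851, both on the minus strand. Fcgr3 and Fcgr2b are close relatives: 166 stretches of 50 bases occur in transcripts of both, which is 9.58% of those in Fcgr3 and 2.92% of those in Fcgr2b, and how reads there were counted is not given in the sources used here. Fcgr2b also shares 155 exonic bases with the antisense gene Gm38204, and without a stated strand setting reads there cannot be told apart.

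The promoters of Fcgr1, Fcgr4 and Fcgr2b are shown, a choice made with their changes and letter matches known. RefSeq windows from 250 bases before to 50 bases after the start (GRCm38.p6) were searched on both strands for TTCNNNGAA (GAS, the gamma interferon activation site), GAGGAA (bound by PU.1, the product of Spi1) and a pair of GAAA half-sites separated by any 2 bases (core of the interferon-stimulated response element, bound by interferon regulatory factors). The 150 bases before each RefSeq start are given 5′ to 3′ in the direction of transcription, with matches in capitals.
Fcgr1 (chr3:96293970-96294119, minus strand): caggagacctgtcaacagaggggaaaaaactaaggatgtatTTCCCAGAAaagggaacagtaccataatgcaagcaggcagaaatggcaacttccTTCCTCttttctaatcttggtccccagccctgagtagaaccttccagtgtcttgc
Fcgr4 (chr1:171018776-171018925, plus strand): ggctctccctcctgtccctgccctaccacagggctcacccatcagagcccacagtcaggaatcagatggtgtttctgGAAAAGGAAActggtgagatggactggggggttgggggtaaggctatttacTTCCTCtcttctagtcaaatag
Fcgr2b (chr1:170976072-170976221, minus strand): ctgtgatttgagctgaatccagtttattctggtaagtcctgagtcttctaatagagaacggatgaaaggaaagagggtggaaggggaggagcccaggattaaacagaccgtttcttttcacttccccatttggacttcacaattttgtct
Fcgr1 held 1 GAS match, TTCCCAGAA, whose first base lies 109 bases before the start, and 1 PU.1 match, TTCCTC, 55 bases before it. Fcgr4 held 1 match to the response element core, GAAAAGGAAA, 73 bases before the start, and 1 PU.1 match 22 bases before it, and no matches overlap. The window of Fcgr2b held none of these letters, nor did those of Fcer1g and Fcgrt, and Fcgr3 held only a PU.1 match. The RefSeq starts of Fcgr2b, Fcgr3, Fcgr4, Fcer1g and Fcgrt lie inside their GENCODE spans. They lie farthest from the edge for Fcgr2b and Fcgr3, whose spans reach 170976547 and 171064935. Starts outside the RefSeq windows were not searched. Of all 32851 RefSeq promoter windows 8.3% held the GAS letters, 28.3% the PU.1 letters and 3.44% the response element core, so the last is the rarest of the 3. A match is a string of letters and no measured binding site, and the part of these letters in the receptor changes was not tested.

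In tumor, TDB raised all 3 activating receptors, their signaling chain and the inhibitory receptor, while Fcgrt did not pass the test. The rise was largest for Fcgr4 (17.1-fold), followed by Fcgr1 (5.65-fold), Fcgr3 (4.39-fold), Fcer1g (3.53-fold) and Fcgr2b (3.07-fold). These 5 of 6 genes passed an adjusted p of 0.05 in edgeR's quasi-likelihood test, in a comparison where 15.8% of 15454 tested genes rose, 13.1% fell and 28.8% changed in either direction. All 5 calls held under each of 16 alternative analyses.

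Fcgr4 encodes a mouse receptor of intermediate affinity for IgG2a and IgG2b on monocytes, macrophages and neutrophils. It measured 1.11, 0.638 and 1.27 CPM in the 3 tumor vehicle libraries, from 21 to 43 counts each, and 14.9, 18.2 and 15.6 CPM in the 3 tumor TDB libraries. All TDB libraries lay more than 10 CPM above all vehicle libraries. The log2 fold change was 4.09 (SE 0.212, edgeR adjusted p = 2.6e-06).

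Fcgr1 encodes the high-affinity IgG receptor of monocytes and macrophages. Tumor vehicle libraries measured 3.44, 2.64 and 3.91 CPM, and tumor TDB libraries 17.4, 19.8 and 16 CPM. The groups did not overlap, and the log2 fold change was 2.50 (SE 0.154, edgeR adjusted p = 6.8e-06).

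Fcgr3 encodes the low-affinity activating receptor, which is also the Fc receptor of mouse NK cells. It went from 6.67, 4.16 and 8.5 CPM in tumor vehicle to 23.3, 30.1 and 26.8 CPM in tumor TDB. Again every TDB library exceeded every vehicle library, with a log2 fold change of 2.14 (SE 0.243, edgeR adjusted p = 9.0e-04). Its spread among vehicle libraries was wide, with a coefficient of variation of 33.8% against 12.7% under TDB.

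Fcer1g measured 8.11, 5.71 and 8.35 CPM in tumor vehicle and 24, 26.1 and 23.7 CPM in tumor TDB. The coefficient of variation was 5.32% among TDB libraries, and the log2 fold change was 1.82 (SE 0.14, edgeR adjusted p = 3.0e-05).

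The inhibitory Fcgr2b measured 7.1, 4.68 and 9.54 CPM in tumor vehicle and 22.4, 22.4 and 16.9 CPM in tumor TDB. The groups did not overlap, and its log2 fold change of 1.62 (SE 0.251, edgeR adjusted p = 0.00351) was the smallest of the 5.

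Fcgrt did not pass the test in tumor. It measured 14.5, 11.6 and 19.1 CPM in vehicle and 11.7, 12.8 and 13.5 CPM under TDB, and these ranges overlap. The log2 difference was -0.17 (95% interval -0.56 to 0.22, edgeR adjusted p = 0.496).

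**Figure D1:**
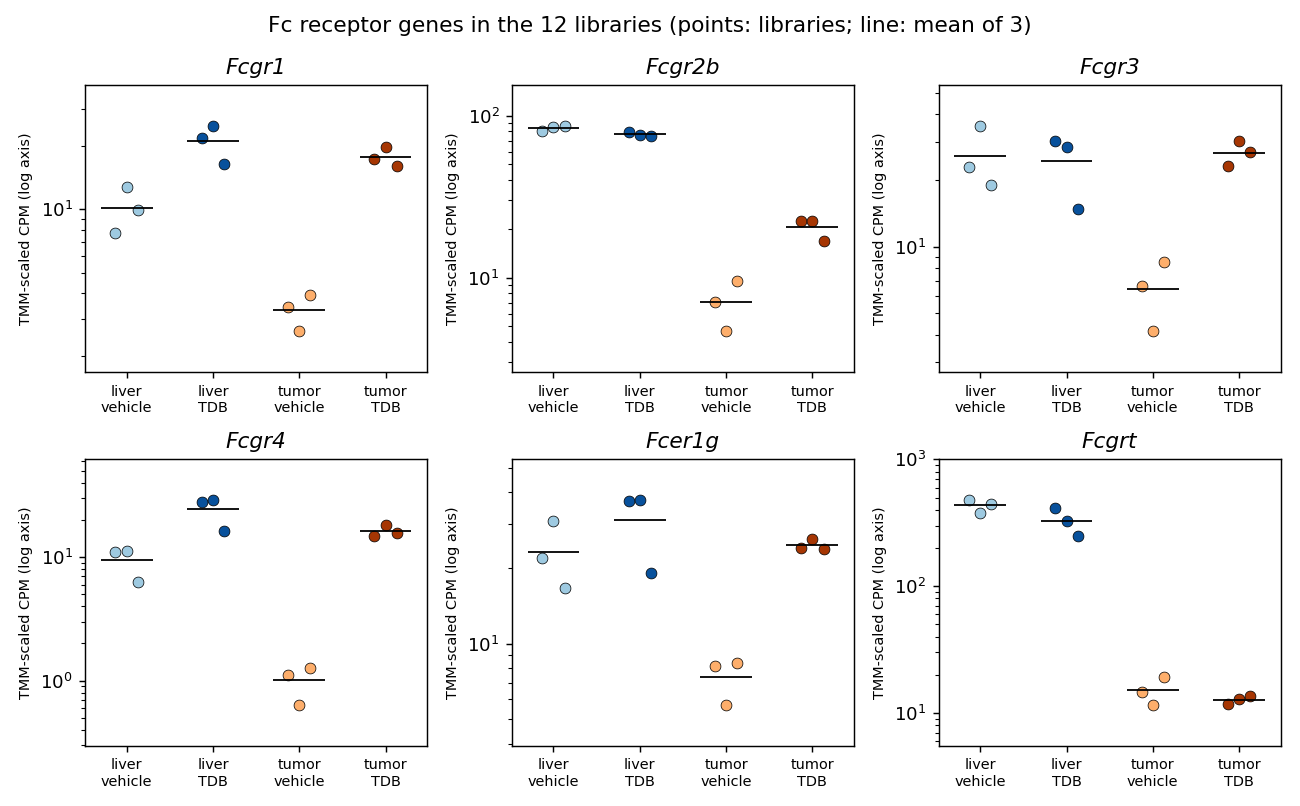
Level of each gene in each of the 12 libraries, in TMM-scaled CPM on a log axis; points are libraries and lines the mean of the 3 libraries of a group. In tumor the TDB points lie above the vehicle points for every gene but Fcgrt; the lower position of tumor against liver depends on the scaling for Fcgr1, Fcgr3, Fcgr4 and Fcer1g (scaling by library size alone left Fcgr1, Fcgr3 and Fcer1g uncalled in vehicle and turned the sign of Fcgr1, Fcgr4 and Fcer1g under TDB).

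In liver, no member passed the test (0 of 6), in a comparison where 0.513% of 13657 genes rose, 0.022% fell and 0.535% changed in either direction. By edgeR 2 of the 6, Fcgr1 and Fcgr4, had an unadjusted p under 0.05, as did 1105 of all 13657 tested genes. DESeq2 called both, among 320 of 14956 genes it tested.

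Fcgr4 measured 11, 11.3 and 6.25 CPM in liver vehicle and 27.8, 29.2 and 16.4 CPM in liver TDB. The groups did not overlap, and the log2 difference was 1.40 (95% interval 0.61 to 2.19, edgeR adjusted p = 0.2). The adjusted p was 0.0112 with DESeq2, 0.0372 in a fit of all 12 libraries, and 0.0351 without the outlying library 3 of liver TDB. Fcgr4 passed in liver under only 4 of 16 alternatives.

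Fcgr1 measured 7.72, 12.7 and 9.88 CPM in liver vehicle and 21.8, 24.9 and 16.4 CPM in liver TDB. These groups did not overlap either, with a log2 difference of 1.09 (95% interval 0.42 to 1.77, edgeR adjusted p = 0.262). The adjusted p was 0.0417 with DESeq2, 0.0386 in the fit of all 12 libraries and 0.0753 without library 3 of liver TDB. Fcgr1 passed in liver under only 2 of 16 alternatives.

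The other activating genes showed no separation in liver. Fcgr3 measured 22.9, 35.3 and 19.1 CPM in vehicle and 30.2, 28.2 and 14.8 CPM under TDB, a log2 difference of -0.04 (95% interval -0.86 to 0.78, edgeR adjusted p = 0.978). Without library 3 of liver TDB that difference was 0.22, and without library 2 of liver vehicle it was 0.27, so its sign rests on single libraries. Fcer1g measured 22, 30.8 and 16.7 CPM in vehicle and 37, 37.4 and 19.1 CPM under TDB, with overlapping groups and a log2 difference of 0.46 (95% interval -0.34 to 1.26, edgeR adjusted p = 0.807).

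Fcgr2b varied least among the 6 genes in liver, with coefficients of variation of 4.15% in vehicle and 2.86% under TDB. It measured 79.9, 85.3 and 86.4 CPM in vehicle and 79.3, 75.9 and 75.2 CPM under TDB. The TDB libraries lay just below the vehicle libraries, and the log2 difference was -0.09 (95% interval -0.50 to 0.33, edgeR adjusted p = 0.909), an interval that excludes the change seen in tumor. Under scaling by library size alone that difference was 0.02.

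Fcgrt measured 481, 376 and 444 CPM in liver vehicle and 414, 325 and 249 CPM in liver TDB. The groups overlap, and the log2 difference was -0.36 (95% interval -0.89 to 0.18, edgeR adjusted p = 0.789). Hepatocyte markers, 0 of 8 of which passed the test, summed to 235000 to 280000 CPM in liver vehicle and 154000 to 194000 in liver TDB, and their part in this value was not tested.

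**Figure D2:**
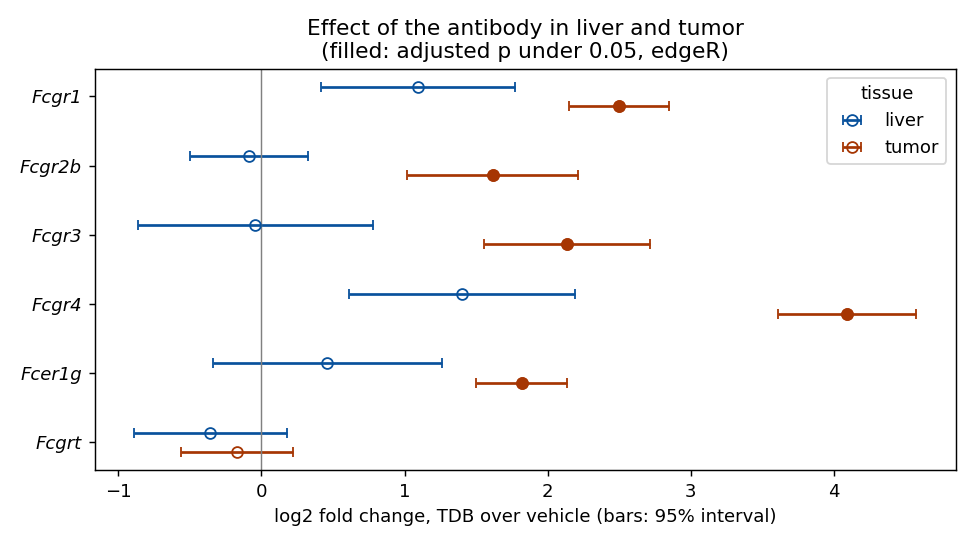
Log2 fold change of TDB over vehicle in liver and in tumor for each gene, with 95% intervals; filled points passed an adjusted p of 0.05 in edgeR. The 5 filled points are all in tumor, from 1.62 (Fcgr2b) to 4.09 (Fcgr4), and the liver intervals of Fcgr1 and Fcgr4 lie above 0 without passing the adjusted threshold.

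The tissues were then compared directly, by testing whether the log2 effect of TDB in tumor minus that in liver differed from 0. It did for 3 of 6 genes, where 1.83% of 16557 tested genes had a higher effect in tumor, 0.658% a lower effect and 2.49% differed in either direction. The difference was 2.64 for Fcgr4 (SE 0.433, edgeR adjusted p = 0.00679), 1.66 for Fcgr2b (SE 0.315, edgeR adjusted p = 0.0145) and 2.13 for Fcgr3 (SE 0.462, edgeR adjusted p = 0.0305).

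The call for Fcgr4 held under 20 of 21 alternatives and was lost only on the log2(FPKM + 1) scale, where low genes are compressed (adjusted p = 0.293). That for Fcgr2b held under 19 and was lost without library 1 of tumor TDB (adjusted p = 0.0501) or library 2 (adjusted p = 0.0523). That for Fcgr3 held under only 12. It was lost without liver TDB 2 (adjusted p = 0.0538), liver vehicle 1 (0.0648) or 2 (0.071), tumor TDB 1 (0.0591), 2 (0.0911) or 3 (0.0686), tumor vehicle 1 (0.0781) or 2 (0.0787), and with a replicate block (0.104).

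Fcgr1, with a difference of 1.36 (95% interval 0.65 to 2.06, edgeR adjusted p = 0.0513), missed the threshold and passed it under 7 of 21 alternatives. Fcer1g differed by 1.31 (95% interval 0.44 to 2.18, edgeR adjusted p = 0.141) and Fcgrt by 0.14 (95% interval -0.54 to 0.83, edgeR adjusted p = 0.958).

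Without treatment, all 6 genes were lower in tumor than in liver by edgeR with TMM scaling, where 37.8% of 15633 tested genes were lower, 40.8% higher and 78.5% differed. Scaling by library size alone, which moves the median log2 difference of all tested genes from 0.09 to 1.42, left only Fcgr2b, Fcgr4 and Fcgrt lower, with 67.1% of all tested genes higher and 17.7% lower. Fcgrt differed most, at 434 ± 53.3 CPM (SD, n = 3) in liver vehicle and 15.1 ± 3.78 CPM (SD, n = 3) in tumor vehicle, a log2 difference of -4.85 (SE 0.232, edgeR adjusted p = 1.6e-07) or -3.52 by library size alone. Fcgr2b followed, at 83.9 ± 3.48 CPM and 7.11 ± 2.43 CPM, with a log2 difference of -3.57 (SE 0.247, edgeR adjusted p = 1.7e-06) or -2.23 by library size alone.

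Fcgr4 differed by -3.24 (edgeR adjusted p = 2.5e-05), or -1.90 by library size alone. Fcgr3 at -2.01, Fcer1g at -1.65 and Fcgr1 at -1.61 passed with TMM scaling but not by library size alone, where they were -0.66, -0.31 and -0.27.

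Markers of the cells that hold these receptors in liver also differed between tissues. Markers of liver sinusoidal endothelium summed to 617 to 642 CPM in liver vehicle and 26.1 to 36.1 in tumor vehicle, where Clec4g was at 0 and Stab1, which macrophages also express, made up 94.3% of the sum. Kupffer cell markers summed to 711 to 1080 and 1.7 to 3.2 CPM, with Clec4f and Marco at 0 in tumor vehicle, and 7 of 7 were lower in tumor. The part of these cells in the low tumor levels of Fcgr2b and Fcgrt was not tested. In bulk tissue, fewer cells of a type and less RNA per cell cannot be told apart.

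After TDB only 2 of 6 genes, Fcgr2b and Fcgrt, were lower in tumor than in liver with TMM scaling, where 33.5% of 15953 genes were lower, 34.1% higher and 67.6% differed. Fcgrt differed by -4.71 (SE 0.262, edgeR adjusted p = 1.2e-05) and Fcgr2b by -1.90 (SE 0.191, edgeR adjusted p = 1.4e-04). The others were -0.59 for Fcgr4 (95% interval -1.20 to 0.01, adjusted p = 0.073), -0.34 for Fcer1g (-1.01 to 0.32, 0.304), -0.25 for Fcgr1 (-0.74 to 0.25, 0.318) and 0.13 for Fcgr3 (-0.57 to 0.82, 0.716).

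These 4 depend on scaling and on 1 library. By library size alone, which moves the median of all genes from 0.04 to 1.17, Fcgr1 (0.90), Fcgr3 (1.28) and Fcer1g (0.81) were higher in tumor and passed the test, and Fcgr4 was 0.56 (adjusted p = 0.0549). By that scaling 60.9% of all tested genes were higher in tumor and 16% lower, so a count of 3 of 6 higher is no larger a share than that of all genes. Without library 3 of liver TDB and with TMM scaling, 5 genes were lower in tumor, with Fcgr1 at -0.40, Fcgr4 at -0.81 and Fcer1g at -0.60, and Fcgr3 at -0.13 did not pass. Only Fcgr2b and Fcgrt were lower in tumor under each of the 4 scalings tried (TMM, median of ratios, upper quartile and library size). The comparisons between tissues use the same libraries as those between treatments and are not independent of them.

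By group, the order of the levels was alike for several genes. Fcgr1 ranked liver TDB (21 ± 4.3 CPM, SD, n = 3), tumor TDB (17.7 ± 1.92), liver vehicle (10.1 ± 2.5) and tumor vehicle (3.33 ± 0.642), and Fcgr4 ranked the same, at 24.5 ± 7.02, 16.2 ± 1.74, 9.52 ± 2.83 and 1.01 ± 0.329. For both, the 2 TDB groups overlapped in range while the other neighbours did not. Fcer1g ranked liver TDB (31.2 ± 10.5), tumor TDB (24.6 ± 1.31), liver vehicle (23.2 ± 7.12) and tumor vehicle (7.39 ± 1.46), and only tumor vehicle was separate from its neighbour. Fcgr3 ranked tumor TDB (26.7 ± 3.4), liver vehicle (25.8 ± 8.47), liver TDB (24.4 ± 8.37) and tumor vehicle (6.44 ± 2.18), again with only the last separate.

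Fcgr2b ranked liver vehicle, liver TDB (76.8 ± 2.19), tumor TDB (20.6 ± 3.18) and tumor vehicle, with no overlap between neighbours, and Fcgrt ranked liver vehicle above liver TDB (329 ± 82.6) and tumor vehicle above tumor TDB (12.7 ± 0.907), with overlap within each tissue and none between them. These orders hold for TMM-scaled CPM.

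To compare genes with each other, CPM was divided by exonic length in kilobases (CPM per kb). In liver vehicle Fcgrt was highest at 206 ± 25.3 CPM per kb (SD, n = 3), followed by Fcer1g at 26.5 ± 8.08, Fcgr3 at 14.9 ± 4.92, Fcgr2b at 14.5 ± 0.586, Fcgr4 at 7.57 ± 2.25 and Fcgr1 at 3.9 ± 0.968. In tumor vehicle Fcer1g led at 8.46 ± 1.67, with Fcgrt at 7.17 ± 1.8 overlapping it, then Fcgr3 at 3.71 ± 1.25, Fcgr1 at 1.29 ± 0.248, Fcgr2b at 1.23 ± 0.421 and Fcgr4 at 0.8 ± 0.261. Under TDB Fcgr4, the lowest in tumor vehicle, measured 13 ± 1.36 CPM per kb in tumor, overlapping Fcgr3 at 15.4 ± 1.95 and below Fcer1g at 28.1 ± 1.54, while Fcgr2b was the lowest at 3.55 ± 0.549. With the longest transcript in place of all exons, Fcgr2b averaged 13.3 rather than 8.13 CPM per kb over the 12 libraries and ranked above Fcgr3 in liver vehicle.

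The mix of the 4 IgG receptors differed between treatments. Of the summed CPM per kb of Fcgr1, Fcgr2b, Fcgr3 and Fcgr4, Fcgr4 made up 12.1%, 10.7% and 11.2% in the tumor vehicle libraries and 33.1%, 33.4% and 33.7% in the tumor TDB libraries. Fcgr3 made up 50.6% to 54% in vehicle and 37.4% to 41.7% under TDB, and Fcgr2b 16.8% to 18.2% and 7.89% to 10.8%, neither with overlap. The shares of Fcgr1 overlapped, at 16.7% to 21.6% and 16.7% to 18.7%. These shares are descriptions and were given no test.

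In liver the share of Fcgr4 was 22.6%, 18.3% and 14.3% in vehicle and 35.8%, 37.4% and 32% under TDB. All 3 TDB libraries lay above the vehicle libraries, library 3 of liver TDB included. Fcgr2b made up 30.1% to 43% in vehicle and 21.1% to 31.7% under TDB, with overlap, and Fcgr3 31.6% to 41.6% and 20.8% to 28.3%, without. A share within a library does not depend on the scaling between libraries.

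**Figure D3:**
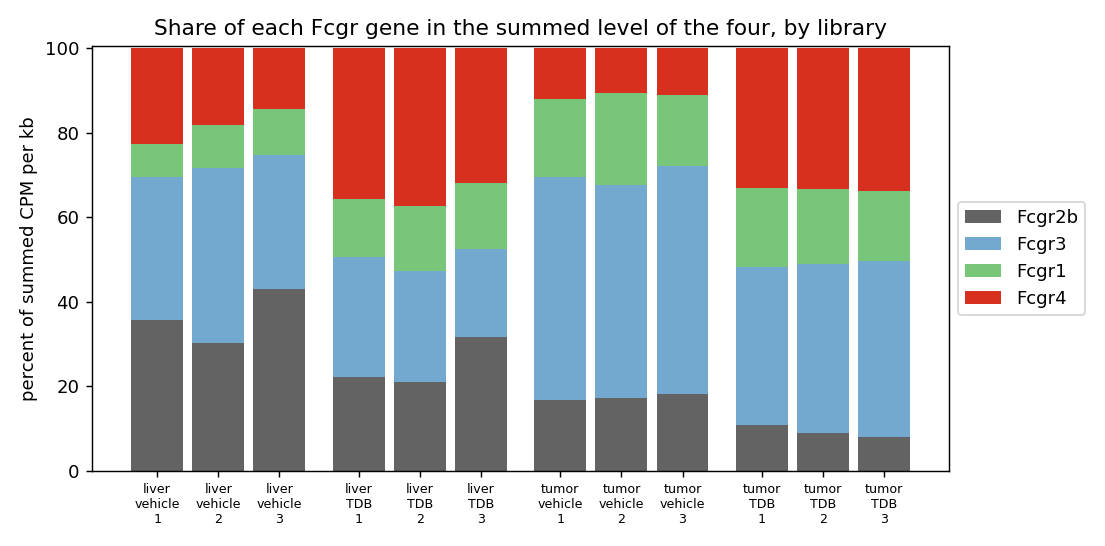
Share of each receptor gene in the summed CPM per kb of Fcgr1, Fcgr2b, Fcgr3 and Fcgr4, in percent, with 1 bar per library. The top segment, Fcgr4, makes up 10.7% to 12.1% in tumor vehicle and 33.1% to 33.7% in tumor TDB, and 14.3% to 22.6% and 32% to 37.4% in liver.

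The log2 ratio of the 3 activating genes together to Fcgr2b, per kb, was 2.3, 2.28 and 2.17 in tumor vehicle and 3.05, 3.35 and 3.55 in tumor TDB. In liver it was 0.85, 1.22 and 0.41 in vehicle and 1.81, 1.91 and 1.11 under TDB. The groups did not overlap in tumor and overlapped in liver, where the lowest TDB value is again that of library 3. Every tumor library lay above every liver library. Without division by length the ratio was lower in all 4 groups, at means of -0.92 (vehicle) and -0.18 (TDB) in liver and 0.62 and 1.57 in tumor, so the sign of the ratio depends on the length used and the order of the groups does not.

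Markers of cells that carry these receptors moved with the tumor result. Of 15 monocyte and macrophage markers 9 rose in tumor under TDB, where 15.8% of all tested genes rose. Cx3cr1 fell by 1.57 on the log2 scale (edgeR adjusted p = 2.3e-04). The sum of the 15 markers was 396 to 527 CPM in vehicle and 1150 to 1350 under TDB. None of the 15 was at 0. Cd14, the lipopolysaccharide coreceptor, made up 27.7% of the mean sum in tumor vehicle and 55.6% in tumor TDB, at 131 ± 6.66 CPM in tumor vehicle and 692 ± 146 CPM in tumor TDB (SD, n = 3); without Cd14 the mean sum was 341 and 553 CPM. In liver 0 of the 15 passed, and the sum was 844 to 1120 and 932 to 1280 CPM.

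Summed markers of neutrophils, NK cells, dendritic cells and T cells were also higher in every tumor TDB library than in any tumor vehicle library. The same held for further lists given at the end of this paragraph. Neutrophil markers summed to 3.25 to 8.03 CPM in vehicle and 25.4 to 48.8 CPM under TDB, with Ly6g at 0 in vehicle. S100a8 alone made up 56.4% of the mean sum in tumor vehicle and 71.1% in tumor TDB. Csf3r was at 1.38 and 6.3 CPM, and S100a9 at 0.763 and 1.68 CPM. NK cell markers summed to 0.184 to 0.243 CPM in vehicle and 6.05 to 14.8 CPM under TDB, with Klra8 at 0 in vehicle. Dendritic cell markers summed to 14.6 to 16.9 CPM in vehicle and 39.6 to 40.4 CPM under TDB, with Clec9a at 0 in vehicle. The largest parts of this sum were Itgax and Zbtb46. Itgax was at a mean of 7.34 CPM in tumor vehicle and 28.6 CPM in tumor TDB (71.8% of the TDB sum). Zbtb46 was at 8.55 and 7.69 CPM. T cell markers summed to 1.18 to 2.31 CPM in tumor vehicle and 6.94 to 11.2 CPM in tumor TDB, with Cd3e at 0 in vehicle, and to 13.5 to 15.9 and 27.6 to 33.8 CPM in liver. In liver 1 of 7 T cell markers, Cd8a, passed the test, where 0.513% of all tested genes rose. Many markers of these lists had few counts in tumor vehicle and entered the test only through the TDB libraries (over 3 libraries Gzma had 9, Eomes 1, Xcr1 2 and Cd3d 3 counts in vehicle), so the number that passed in tumor is not given. B cell markers summed to 0.444 to 0.759 CPM in tumor vehicle and 1.08 to 1.46 CPM in tumor TDB. Mast cell and basophil markers summed to 0 to 0.123 and 0.338 to 0.685 CPM. Sums of Kupffer cell markers (1.7 to 3.2 and 3.34 to 3.9 CPM) and liver sinusoidal endothelium markers (26.1 to 36.1 and 41.4 to 47.6 CPM) did not overlap either. In tumor TDB Timd4 made up 60% of the Kupffer cell sum and Dnase1l3 54.7% of the sinusoidal sum. The pan-endothelium, hepatocyte and tumor epithelium sums overlapped. The part of these cells in the receptor changes was not tested.

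As Cd14 was the largest single part of that sum in tumor, the receptors were also expressed per 100 CPM of Csf1r, the macrophage colony-stimulating factor receptor and a marker of the lineage, a measure chosen after the values were seen. Csf1r itself rose in tumor, from 24.2 ± 4.12 to 48.6 ± 1.4 CPM (SD, n = 3; log2 fold change 1.09, SE 0.119, edgeR adjusted p = 2.6e-04). Per 100 Csf1r, Fcgr4 was 4.22, 3.27 and 4.72 in tumor vehicle and 30.6, 38.6 and 31.3 in tumor TDB. Fcgr1 was 13.1 to 14.5 and 32.1 to 42.1, and Fcgr3 21.3 to 31.5 and 47.8 to 63.8. Fcer1g was 29.2 to 31 and 47.5 to 55.4, so Fcgr1, Fcgr3, Fcgr4 and Fcer1g remained apart between groups. Fcgr2b, at 24 to 35.3 and 33.8 to 47.4, overlapped. Fcgrt, whose CPM overlapped, was lower under TDB without overlap, at 55.2 to 70.9 and 23.9 to 27.1. Such a ratio can therefore part groups whose CPM overlap. The share of all genes that remain apart was not counted. Per 100 CPM of the summed macrophage markers without Cd14, Fcgr2b was 1.72 to 2.4 in tumor vehicle and 2.74 to 4.43 in tumor TDB and did not overlap, whereas with Cd14 in the sum it overlapped at 1.18 to 1.81 and 1.47 to 1.81.

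In liver Csf1r measured 75.4 ± 17.4 and 79 ± 20.3 CPM and the ratios overlapped for every member. Fcgr4 was 13.4, 20.2 and 7.07 per 100 Csf1r in vehicle and 45.5, 38.9 and 16.3 under TDB, with library 3 of liver TDB inside the vehicle range. Per 100 CPM of the summed macrophage markers the liver groups did not overlap for Fcgr1, Fcgr4 and Fcgrt. Fcgr1 was 0.762 to 1.17 in vehicle and 1.71 to 2.05 under TDB, and Fcgr4 was 0.741 to 1.09 and 1.76 to 2.41. Fcgrt was lower under TDB, at 33.6 to 52.6 in vehicle and 26.7 to 32.4 under TDB. The share of all genes without overlap on this measure was not counted.

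**Figure D4:**
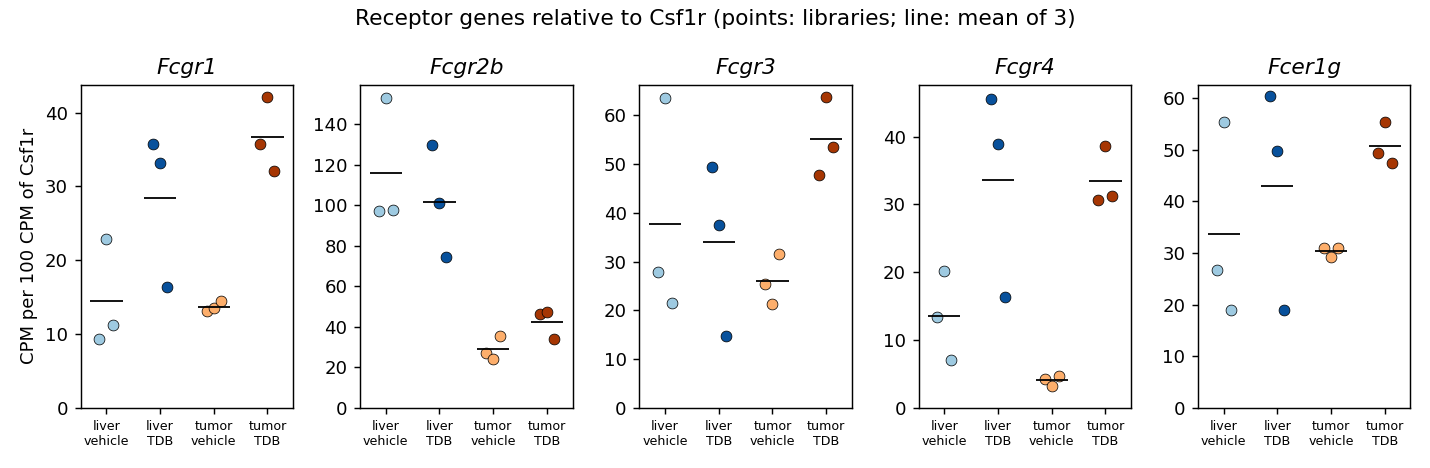
CPM of each gene but Fcgrt per 100 CPM of Csf1r. Points are libraries and lines the mean of the 3 libraries of a group, and each axis starts at 0. In tumor the TDB points lie above the vehicle points for Fcgr1, Fcgr3, Fcgr4 and Fcer1g, and overlap with them for Fcgr2b; in liver the groups overlap for each gene.

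Of 14 listed signaling genes downstream of the activating receptors, 10 rose in tumor, 0 fell and 4 did not pass the test. Their median log2 change was 1.16 against -0.02 over all tested genes, of which 15.8% rose and 13.1% fell. The Src-family kinase Fgr went from 0.816 ± 0.113 to 10 ± 1.93 CPM (log2 3.69, SE 0.202, edgeR adjusted p = 3.3e-06). Pik3cd, the leukocyte phosphoinositide 3-kinase subunit, rose by 1.96 (SE 0.147) on the same scale, and Lcp2, the adaptor SLP-76, by 1.94 (SE 0.126). In liver 0 of 14 passed, with a median of 0.76 against 0.04 over all genes. The effect was larger in tumor than in liver by its own test for 1 of the 14, Fgr.

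All 5 of 5 listed NADPH oxidase genes, which make the respiratory burst that follows Fc receptor uptake, rose in tumor. Of all tested genes 15.8% rose there, and the median was 1.87 for the list against -0.02 over all genes. Cybb, the catalytic subunit, went from 13.3 ± 3.08 to 50.7 ± 6.35 CPM (log2 2.01, SE 0.183, edgeR adjusted p = 2.5e-04), and its partner Cyba and the cytosolic subunit Ncf4 rose by 1.87 and 1.91. In liver 0 of 5 passed, with a median of 0.60, and the effect of TDB differed between tissues for 0 of 5.

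On the inhibitory side 3 of 7 genes rose in tumor and the median was 0.07, against 15.8% and -0.02 for all tested genes. Inpp5d, the phosphatase recruited by Fcgr2b, went from 9.21 ± 1.69 to 20.3 ± 0.802 CPM (log2 1.22, SE 0.132, edgeR adjusted p = 2.1e-04). The adaptor Dok2 rose by 2.99 (SE 0.357) from a low level of 0.56 ± 0.313 CPM, and the tyrosine phosphatase Ptpn6 by 0.71 (SE 0.103). None of the 7 passed in liver, where the median was 0.23.

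Of 10 other receptors listed as using the Fcer1g chain, 6 were abundant enough to be tested in tumor and 4 in liver. Clec4e, Klrb1c, Tarm1 and Ncr1 passed in tumor, but each entered the test only through the TDB libraries, so their number is no support for the list. Clec4e, the receptor Mincle, went from 19 to 217 counts over 3 libraries. Tarm1, an activating receptor of myeloid cells, had 0 counts in the tumor vehicle libraries and 137 in the tumor TDB libraries, at least 41.3-fold higher against a floor of 3 counts over the group. Ncr1, the NK cell receptor NKp46, went from 9 to 212 counts over 3 libraries, and Klrb1c (NK1.1) from 2 to 77, a ratio of 34.8 (95% exact interval 9.31 to 293, counting error only). In liver 0 of the 4 tested passed. Tyrobp, the other ITAM chain of myeloid cells, rose by 0.95 (SE 0.123, edgeR adjusted p = 6.0e-04) in tumor, from 11.9 ± 2.01 to 21.7 ± 0.451 CPM. Of 3 other ITAM chains 2 were tested in tumor and 1, Tyrobp, passed, and 0 of 3 passed in liver.

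Of 9 other Fc receptor and Fc receptor-like genes only 2 were tested in tumor. Trim21, the cytosolic antibody receptor, rose by 2.21 (SE 0.078, edgeR adjusted p = 2.2e-07), from 20.7 ± 1.36 to 90.1 ± 4.73 CPM. Fcrls, a receptor-like gene of microglia and some macrophages, fell by 1.81 (SE 0.205, edgeR adjusted p = 5.1e-04), from 20.4 ± 3.66 to 5.49 ± 1.37 CPM. Neither of the 2 tested in liver passed.

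B2m, the light chain of Fcgrt and of MHC class I, went from 157 ± 40.2 to 1900 ± 421 CPM in tumor (log2 3.68, SE 0.252, edgeR adjusted p = 6.4e-05), where Fcgrt did not pass the test. Igkc, the kappa chain of the antibodies that Fcgrt carries, went from 25 to 400 counts over 3 libraries (log2 3.80, SE 0.773, edgeR adjusted p = 0.0123), 283 of them in 1 library. These were 2 of 3 tested genes of 7 listed partners and ligands, and 0 of 4 passed in liver. Igkc, with 4 to 14 counts in each tumor vehicle library, entered the tumor test only through the TDB libraries. The count of 2 is therefore no support for the list.

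Of 5 listed transcription factors known to act on Fc receptor genes, 3 rose in tumor and 2 in liver, with medians of 1.82 and 0.83. Of all tested genes 15.8% rose in tumor and 0.513% in liver, with medians of -0.02 and 0.04. Irf1 rose by 4.69 (SE 0.1, edgeR adjusted p = 8.5e-09) in tumor and 1.81 (SE 0.218, edgeR adjusted p = 0.0183) in liver, and Irf8 by 3.23 (SE 0.137) and 1.62 (SE 0.225, edgeR adjusted p = 0.0343). Spi1 rose by 1.83 (SE 0.19, edgeR adjusted p = 1.9e-04) in tumor and was 0.51 in liver (95% interval -0.17 to 1.20, edgeR adjusted p = 0.758). The effect was larger in tumor by its own test for Irf1 and Irf8. Irf1 and Irf8 rose in liver, where no member passed the test. The part of these factors in the receptor changes was not tested.

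Across the 12 libraries, the genes most like each member were picked by Pearson's r of log2 CPM among 12540 genes, as a description, since 12 libraries in 4 groups share treatment and tissue. Fcgr4 was most like Scimp (r = 0.994), Gbp2b (0.991) and Klrk1 (0.991), and Fcgr1 like Ly6a (0.986), H2-T-ps (0.985) and Ifi47 (0.982). Fcgr3 was most like Cd86 (0.976), H2-T22 (0.974) and Rnf114 (0.969), and Fcer1g like H2-T10 (0.99), Zfp945 (0.98) and H2-T22 (0.979). Fcgr2b was most like Stom (0.996), C4a (0.993) and C1s1 (0.992), and Fcgrt like the liver-enriched Hoga1, Decr1 and Hpn (each 0.998).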

How the data were processed

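Liver and tumor RNA of 12 libraries was analysed. Groups came from the sample titles. P-values measure the spread between the 3 libraries of a group, which the design text describes as 3 mice. The deposited counts are whole numbers per Ensembl gene, not normalized. GSNAP, limma and GRCm38 are named without role per the submitters' processing notes; how reads were counted, strand included, is not given in the sources used here. The authors also deposited FPKM values, whose implied length relative to the genomic span differed for Fcgr3 from the other members, and these were used only as an alternative.

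Symbols came from GENCODE M21 (52403 of 52636 identifiers matched). The test on counts was that of edgeR 4.0.16 (R 4.3.3), with TMM scaling, filterByExpr (minimum count 10, minimum total 15), a robust quasi-likelihood F test and p-values adjusted after Benjamini-Hochberg over all tested genes (threshold 0.05). The 5 comparisons were TDB against vehicle in each tissue, the difference of those effects, and tumor against liver in each treatment. Scripts were tested on simulated data. Depth of 18460159 to 29396324 counts limits genes such as Fcgr4 in tumor vehicle, with 21 to 43 counts. Levels per kb use the exon union.

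Alternatives were other scalings, no low count filter, a replicate block, a fit of all 12 libraries, DESeq2 1.42.0, limma 3.58.1 (voom on counts, trend on log2 of FPKM plus 1 or 0.1), longest-transcript lengths and leaving out each library. Scaling by library size alone was added after the values were seen. Members and lists were chosen with earlier results of these data known, and 2 genes first listed are not reported here. The text names the 6 members and, per pathway list, up to 3 genes that passed with the largest change in each tissue, and markers where they stand beside a result. Promoter sequences are RefSeq's (GRCm38.p6); 6 of 6 members matched.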

Additional observations from a re-analysis of the deposited data

Results flagged for a closer look

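For 10 genes named in the report the effect of TDB differed between tumor and liver by the edgeR test of the difference itself, over 12 libraries. Among the receptors these were Fcgr4 (tumor minus liver 2.64 on the log2 scale), Fcgr3 (2.13) and Fcgr2b (1.66). The kinase Fgr differed by 2.68 (SE 0.294, adjusted p = 5.5e-04). B2m differed by 3.20 (SE 0.365, adjusted p = 6.6e-04) and Igkc by 4.59 (SE 0.794, adjusted p = 0.00896), and Igkc rests on 25 counts in tumor vehicle. Irf1 differed by 2.84 (SE 0.235, adjusted p = 8.6e-05) and Irf8 by 1.57 (SE 0.255, adjusted p = 0.00639). The NK cell receptors Klrb1c (4.45, SE 0.781, adjusted p = 0.00934) and Ncr1 (4.23, SE 0.653, adjusted p = 0.00493) rest on 2 and 9 counts in tumor vehicle. Klrb1c was too low to be tested within liver and entered this test through the tumor TDB libraries, so its call is no support.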

How the results depend on the processing

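The 5 receptor calls in tumor were made under all 16 alternatives, including the fit with a replicate block, with adjusted p of at most 0.0239; on the log2(FPKM + 1) scale the changes shrank to 0.63 (Fcgr2b) to 1.30 (Fcer1g). In liver, 2 members were called by DESeq2 (320 genes in all) and in the fit of all 12 libraries (323), 1 with a replicate block (350), and 0 to 1 when single libraries were left out (14 to 163 genes); all genes called were 37 on FPKM plus 1 and 145 without the low count filter, against 73. In tumor the fit of all 12 libraries called 1695 genes, and leaving out single libraries 2942 to 4860, against 4456; of these calls 2437 were higher and 2019 lower, but 2075 and 2991 with upper quartile scaling and 1856 and 3994 by library size alone. For the difference between tissues, DESeq2 called 5 members and 856 genes, FPKM plus 0.1 gave 808 genes and FPKM plus 1 gave 1108, the replicate block 258, and leaving out single libraries 1 to 4 members and 241 to 696 genes, against 3 and 412. Between tissues, library size alone called 10495 genes higher and 2772 lower in vehicle (6371 and 5904 with TMM) and 9709 and 2556 under TDB (5432 and 5349); it called 3 members in vehicle and 5 under TDB, where Fcgr1 (0.90), Fcgr4 (0.56) and Fcer1g (0.81) changed sign; leaving out single libraries under TDB gave 2 to 5 members, and values of Fcgr3 from -0.13 to 0.29. Signs also turned for values that passed no test: in liver Fcgr2b (0.023) and Fcgr3 (0.063) by library size alone and Fcgr3 without single libraries (-0.22 to 0.27), in tumor Fcgrt without single libraries (-0.33 to 0.043), and the difference for Fcgrt by library size alone (-0.033) and without single libraries (-0.019 to 0.35). With the longest transcript Fcgr2b averaged 13.3 rather than 8.13 CPM per kb; without length the log2 ratio to Fcgr2b was -0.92 and -0.18 in liver and 0.62 and 1.57 in tumor, vehicle before TDB. Same-numbered vehicle and TDB libraries correlated at -0.105 to 0.614 in their deviations in liver and -0.008 to 0.308 in tumor. Vehicle and TDB libraries of different numbers reached 0.541 in liver. Liver and tumor libraries of the same number and treatment correlated at -0.063 to 0.118. No label ties the numbers to mice across tissues, and they were not taken as pairs. Of the counts of genes called per pathway list, 12 of 128 moved over 1.5 times in liver, 4 of 128 in tumor, 26 of 168 for the difference, 13 of 128 between vehicle tissues and 25 of 128 between TDB tissues.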
